A study of Drosophila melanogaster with 11 samples.

Results

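The genes described here are the 93 cytosolic ribosomal protein genes of Drosophila melanogaster among the 17753 genes measured in each library. They were chosen by name, as every gene whose FlyBase symbol starts with RpL or RpS, kinases and pseudogenes left out, together with stubarista (sta), which encodes a protein of the small subunit under an older name. Of these, 54 belong to the large subunit and 39 to the small subunit, so the rule itself uses no measured value. Bulk polyA mRNA-seq was performed on whole untreated wild-type embryos (Oregon-R) collected in 4 windows after egg deposition (AED), with 3 libraries at 2–4 h AED, 2 at 14–14.5 h AED, 4 at 14–17 h AED and 2 at 17–17.5 h AED. The study contrasted early embryos, before tissues form, with late embryos, in which tissues differentiate terminally. The windows of 14–14.5 h AED and 17–17.5 h AED, called the narrow windows below, lie at the 2 ends of the window of 14–17 h AED. Whole embryos hold every tissue, so fewer cells of a type and less RNA per cell cannot be told apart.

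A cytosolic ribosome carries 1 copy of nearly every ribosomal protein, bound to ribosomal RNA, and its subunits are assembled in the nucleolus with the help of many assembly factors that then leave. The mRNAs of these proteins are among the most abundant of any cell and share a short pyrimidine-rich start site, so the family is usually taken as a unit. The early embryo lives on ribosomes and mRNAs that the mother stored in the egg. Several fly ribosomal proteins are encoded by pairs of genes, of which 1 is often used mainly in the germ line, and several genes are Minute loci, at which loss of 1 copy slows growth.

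Library totals lay between 14472809 and 38904916 estimated counts, and replicate 2 at 2–4 h AED was the shallowest. Markers of stage differed between the early and the later libraries, with 1 exception. The summed level of 9 early embryo markers (among them eve, ftz and twi) was 63.5 to 134 CPM (counts scaled to library size) in the later windows and 2467 to 2717 CPM at 2–4 h AED, while that of 8 late markers (mostly Mhc, of muscle, and Gasp, of cuticle and trachea) was 6439 to 13230 CPM in the later windows and 209.8 to 248.4 CPM at 2–4 h AED. All 9 early markers were lower and 7 of the 8 late ones higher at 14–17 h AED than at 2–4 h AED (edgeR), while the neuronal gene elav did not pass, with 197.6, 192.1, 167.3 and 182 CPM at 14–17 h AED, against 179.4, 189.3 and 182.9 CPM at 2–4 h AED. Egg chamber genes summed to at most 9.32 CPM and adult male genes to at most 0.154 CPM. One feature of the libraries touches every result on the family and is therefore given first. At 14–17 h AED the means of most ribosomal protein genes lay outside the range of the narrow windows at its ends. By CPM with TMM factors, a correction of library size, they lay inside it for 7.95% of members, against 41.9% of all genes tested. Replicate 4 at 14–17 h AED had the lowest TPM of the 4 libraries for 57 of the 84 genes with at least 10 CPM in every window. That count was not made over all genes. The study sequenced on 2 kinds of instrument, and the sources used here do not say which library ran on which, so an instrument and a window cannot be told apart.

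The family took a large share of the mRNA, highest at 2–4 h AED. It held 10.5%, 9.62% and 10.7% of the estimated counts in the libraries of 2–4 h AED, 6.22% and 6.74% at 14–14.5 h AED, 8.34%, 8.66%, 9.17% and 7.62% at 14–17 h AED, and 6.48% and 6.30% at 17–17.5 h AED. The 3 early libraries lay above all others, and the 4 libraries of 14–17 h AED lay above both narrow windows. By TPM, which divides counts by gene length and scales them to a fixed total, the share averaged 20.6% ± 1.36 at 2–4 h AED (SD, n = 3), 14.3% ± 0.779 at 14–14.5 h AED (SD, n = 2), 17.7% ± 1.23 at 14–17 h AED (SD, n = 4) and 13.4% ± 0.284 at 17–17.5 h AED (SD, n = 2). Both subunits followed the same course. Large subunit genes averaged 5.88%, 3.78%, 4.99% and 3.77% of the counts in the 4 windows in time order, and small subunit genes 4.39%, 2.70%, 3.46% and 2.62%. Such shares depend on everything else in a library, and mitochondrial transcripts took between 5.10% and 10.1% of the counts.

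**Figure D1:**
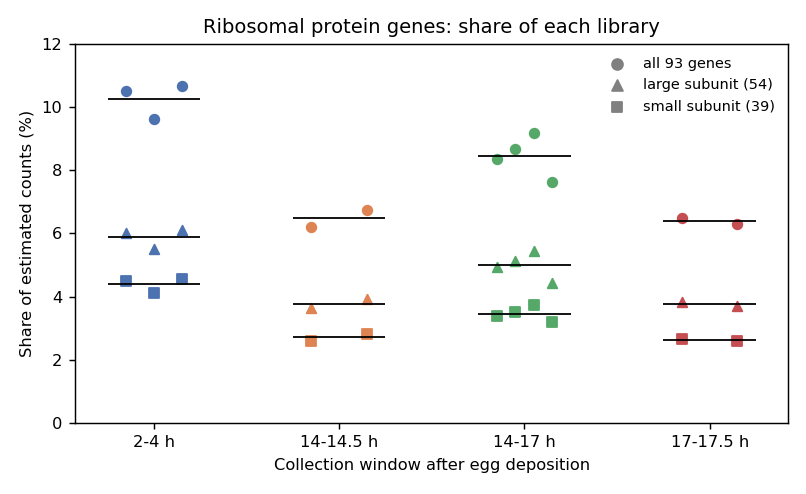
Share of each library's estimated counts (vertical axis, percent) held by all 93 ribosomal protein genes, by the large subunit and by the small subunit, in the 4 collection windows in time order (horizontal axis). Each point is 1 library and each bar a window mean. The early libraries sit between 9.62% and 10.7%, those of 14–17 h AED between 7.62% and 9.17%, and those of the narrow windows between 6.22% and 6.74%.

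Levels within the family were compared as TPM recomputed over exonic length, because the deposited TPM divides by the whole span of a gene, introns included, for 92 of the 93 genes. Although the ribosome holds the proteins in equal number, their mRNAs did not stand at 1 level. Among the 84 genes with at least 10 CPM in every window, the exonic TPM at the 90th percentile was 2.99 times that at the 10th percentile at 2–4 h AED, 4.71 times at 14–14.5 h AED, 2.92 times at 14–17 h AED and 4.78 times at 17–17.5 h AED. The medians of the 84 genes were 2650, 1545, 2311 and 1481 exonic TPM in the same order. The family was therefore both lower and more uneven in the narrow windows than in the other 2, as far as 2 libraries a window show. These 84 genes include both genes of some pairs, such as RpS14a and RpS14b, so the low end is not a level per protein. RpL34a, RpL24-like, RpS15Ab and RpLP0-like held ranks 81 to 84 at 2–4 h AED.

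RpL41, RpS27A and RpL23 had the highest exonic TPM at 14–17 h AED, but of these only RpL41 was among the 10 highest by deposited TPM. RpS27A overlaps Ip259 and RpL41 overlaps NaCP60E, and their estimated counts were not whole in 7 and 11 libraries. RpL41, which encodes the smallest protein of the large subunit, averaged 12238 ± 1035 exonic TPM at 2–4 h AED (SD, n = 3), 3050 ± 20.03 at 14–14.5 h AED (SD, n = 2), 7396 ± 1776 at 14–17 h AED (SD, n = 4) and 3103 ± 149 at 17–17.5 h AED (SD, n = 2). Its rank was 1 at 2–4 h and 14–17 h AED, 10 at 14–14.5 h AED and 8 at 17–17.5 h AED. RpS27A, made as a fusion of ubiquitin with a small subunit protein, held 5899 ± 184, 6433 ± 501, 5946 ± 231 and 6041 ± 15.5 exonic TPM in the 4 windows in time order, differences smaller than or close to the spread between replicates, and had rank 1 or 2 throughout. Fits of its counts did call a log2 fold change of −0.23 ± 0.06 for 14–17 h AED over the narrow windows (adjusted p = 0.00944, edgeR). For the narrow windows over 2–4 h AED it was 0.35 ± 0.07 (adjusted p = 0.00136, edgeR). RpL23, of the large subunit, averaged 3110 ± 148, 6099 ± 382, 4267 ± 184 and 5619 ± 106 exonic TPM and had rank 24 at 2–4 h AED but 2 or 3 afterwards. At the lower end, RpLP0-like averaged 207 ± 10.8, 101 ± 2.94, 83.7 ± 9.17 and 154 ± 10.5 exonic TPM and was the last of the 84 genes in every window. Below it lay genes that this filter left out, RpS19b at 2.22 ± 0.0617, RpL37-2 at 1.38 ± 0.771 and RpL7-like at 0.720 ± 1.44 exonic TPM at 14–17 h AED (SD, n = 4).

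At 14–17 h AED, set against 2–4 h AED, the family changed little in a transcriptome of which most changed. Of the 89 genes tested, 5 were higher and 32 lower at 14–17 h AED than at 2–4 h AED at a threshold of 0.05 (quasi-likelihood test of edgeR, Benjamini-Hochberg adjustment over all genes), while 52 did not pass. Over all 11623 genes tested, 48.2% were higher and 42.4% lower, together 90.6%. All late libraries lay above all early ones for 4 members, 4.49%, against 48.1% of all genes, and below them for 24 members, 27%, against 42%. The change stayed within 1.5-fold for 72 of the 89 genes, 80.9%, against 16.8% of all genes, and the median log2 fold change was −0.19 in the family, against 0.19 over all genes. Other scalings, filters and models placed the median of all genes between 0.08 and 0.28, so changes are read against that median. Family minus all genes lay between −0.38 and −0.36 under each of the 9 that kept every library of both windows. A change of scaling moves both medians alike. With 1 library left out, family minus all genes lay between −0.43 and −0.33. The split of calls was 11 higher and 28 lower with RLE factors and 13 higher and 34 lower with DESeq2. The lower count rested on small changes near the threshold, since it was 52 without replicate 2 at 2–4 h AED and 54 without replicate 3 at 14–17 h AED, and the higher count was 8 without replicate 4 at 14–17 h AED. Under all 16 alternatives 4 genes stayed higher (RpL22-like, RpS5a, RpLP0 and RpL23) and 21 stayed lower.

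**Figure D2:**
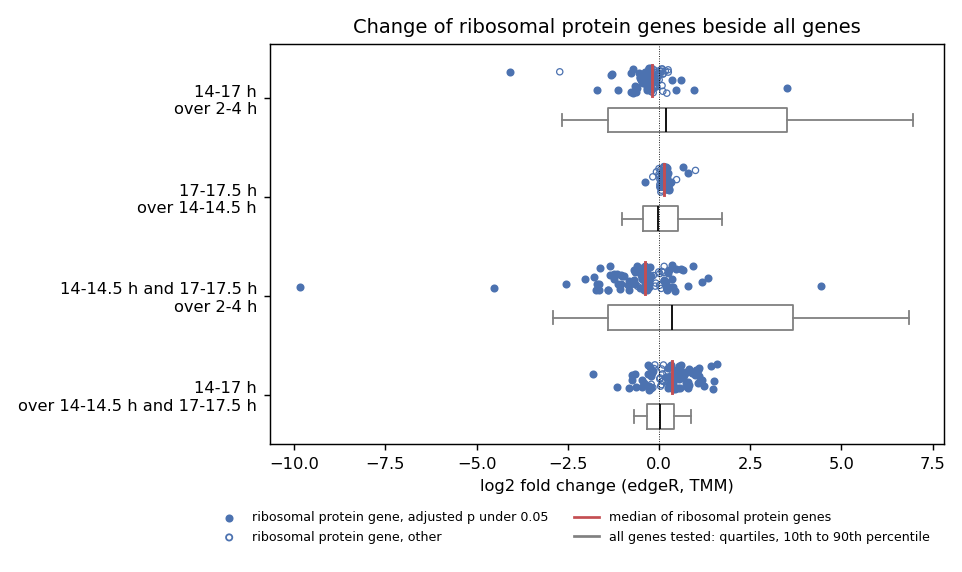
Log2 fold change (horizontal axis, edgeR with TMM factors) of each ribosomal protein gene tested (points, filled where the adjusted p was under 0.05, red line at their median) above a box for all genes tested (quartiles, whiskers from the 10th to the 90th percentile), for 4 comparisons of windows. Between 14–17 h and 2–4 h AED the points cluster near 0, with a median of −0.19, while the box reaches far to both sides. The leftmost point of the third comparison, RpL7-like, lay under 3 counts in each of the 4 later libraries, so its fitted value is no measure of size.

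The largest falls belonged to paralogues and to proteins that resemble assembly factors. RpS5b, at chr3R:14900432-14901563 (dm6, minus strand, 3 exon blocks), encodes the second form of a small subunit protein and is used mainly in the female germ line. It had 41.5, 47.7, 46.3 and 33.7 TPM at 14–17 h AED, against 731, 627 and 785 TPM at 2–4 h AED, which is a log2 fold change of −4.09 ± 0.15 (SE, adjusted p = 2.72e-09, edgeR). The libraries did not overlap. RpS15Ab, a single-block gene at chr2R:10821676-10822399 (plus strand), had 298, 364, 277 and 268 TPM, against 962, 990 and 990 TPM, with a log2 fold change of −1.71 ± 0.09 (adjusted p = 4.13e-08, edgeR). Its estimated counts were not whole in any of the 11 libraries, so its split from its near-identical paralogue RpS15Aa is uncertain. RpL24-like and RpLP0-like had log2 fold changes of −1.30 ± 0.09 and −1.29 ± 0.09 (SE, adjusted p = 3.28e-07 and 4.13e-07, edgeR). Beside these 4, RpS3A alone was called at more than 2-fold lower. RpS3A, of the small subunit and the only member on chromosome 4 (chr4:65225-67207, minus strand), had 2325, 2570, 2440 and 1564 TPM at 14–17 h AED, against 4814, 4652 and 4970 TPM at 2–4 h AED, a log2 fold change of −1.12 ± 0.16 (adjusted p = 7.59e-05, edgeR). A fall of at least 2-fold was called for 5 of 89 members, 5.62%, and for 31.4% of all genes.

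The rises were fewer and, but for 1 gene, 1.12% of the members against 40.4% of all genes, below 2-fold. RpL22-like, on chr2R:23246610-23247893 (minus strand), encodes a second form of a large subunit protein that is best known from the testis. It had 3.84, 3.65, 3.70 and 4.03 TPM at 14–17 h AED, against 0.275, 0.143 and 0.471 TPM at 2–4 h AED, where the 3 libraries held 4, 1 and 7 counts. Its log2 fold change was 3.50 ± 0.33 (SE, adjusted p = 2.91e-06, edgeR), at a level that remained far below its paralogue. RpS5a, which makes the usual form of the protein that RpS5b also encodes, had 668, 673, 671 and 659.6 TPM at 14–17 h AED, against 354, 311 and 364 TPM at 2–4 h AED (log2 fold change 0.95 ± 0.11, adjusted p = 1.84e-05, edgeR). It was higher in all 4 late libraries than in any early one. RpLP0, the base of the ribosomal stalk, rose by 0.60 ± 0.11 and RpL23 by 0.47 ± 0.11 on the log2 scale (adjusted p = 0.00032 and 0.00202, edgeR). RpL29 rose by 0.36 ± 0.12 (adjusted p = 0.0192, edgeR), a call that was lost in 4 of 16 alternatives, with an adjusted p of up to 0.111.

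Of 12 members with a known role beside the ribosome core or another special feature, 1 was higher and 4 were lower at 14–17 h AED than at 2–4 h AED (edgeR), 5 in all, against 37 of the 89 members tested. Over all genes tested 48.2% were higher and 42.4% lower. The smallest, RpL41, had 9268, 9580, 9955 and 5495 TPM at 14–17 h AED, against 14755, 12459 and 14720 TPM at 2–4 h AED (log2 fold change −0.72 ± 0.20, adjusted p = 0.00619, edgeR), with no overlap. The ubiquitin fusions RpS27A and RpL40 had log2 fold changes of 0.03 ± 0.09 and −0.16 ± 0.11 between 14–17 h and 2–4 h AED, and RpS30, fused to a ubiquitin-like protein, −0.07 ± 0.10, none past the test (adjusted p = 0.758, 0.188 and 0.55, edgeR). The stalk proteins RpLP1 and RpLP2 had 0.08 ± 0.10 and 0.26 ± 0.13 (adjusted p = 0.487 and 0.0888), so of the stalk only RpLP0 passed. RpL5 and RpL11 travel with the 5S RNA and can hold the ubiquitin ligase of p53 in vertebrates. RpL5 fell by 0.51 ± 0.15 (adjusted p = 0.0103), while RpL11 had −0.16 ± 0.14 (adjusted p = 0.293). RpS3, which also has a part in DNA repair, fell by 0.34 ± 0.11 (adjusted p = 0.012), and sta had −0.11 ± 0.12 (adjusted p = 0.372). RpS6, the substrate of S6 kinase, had −0.29 ± 0.12 (adjusted p = 0.0423), a call lost in 7 of 16 alternatives, with an adjusted p of up to 0.148.

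At 17–17.5 h AED the family stood near its level of 14–14.5 h AED. Of 87 genes tested, 23 were higher and 1 was lower at 17–17.5 h AED (edgeR, threshold of 0.05), together 27.6%, against 32% higher and 31.5% lower of 11267 genes tested, together 63.6%. The median log2 fold change was 0.14 in the family and −0.04 over all genes, and 84 of 87 genes, 96.6%, changed by less than 1.5-fold, against 57.1% of all genes. This comparison held 2 libraries on each side, and the direction of the family depended on the scaling. With library totals alone 4 genes were higher and 5 lower, with a family median of −0.0086, with all 11 libraries in the fit 2 were higher, and without replicate 1 at 14–14.5 h AED 9 were higher, while DESeq2 called 46 higher. Read against the median of all genes, the family lay 0.18 higher under each setting that kept all 4 libraries. A change of scaling moves both medians alike, so scalings cannot test this difference. With 1 library left out it lay between 0.13 and 0.23.

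RpLP0-like and RpL24-like were the 2 genes that stayed higher at 17–17.5 h AED under all 13 alternatives. RpLP0-like had 183 and 201 TPM at 17–17.5 h AED, against 125 and 132 TPM at 14–14.5 h AED (log2 fold change 0.79 ± 0.08, adjusted p = 0.000302, edgeR). RpL24-like had 289 and 280.5 TPM at 17–17.5 h AED, against 201 and 218 TPM at 14–14.5 h AED (log2 fold change 0.65 ± 0.05, adjusted p = 0.000136, edgeR). In both genes the later libraries lay above the earlier ones without overlap, as they did for 66 of 87 members, 75.9%, and for 40% of all genes tested. For 3 members, 3.45%, the later libraries lay below without overlap, against 43.6% of all genes. RpL22, RpL3 and RpL4 followed with rises of 0.32 ± 0.06, 0.30 ± 0.05 and 0.27 ± 0.06 on the log2 scale (adjusted p = 0.00341, 0.00363 and 0.00729, edgeR), each lost with all 11 libraries in the fit, and that of RpL4 also with library totals. RpS5b fell by 0.39 ± 0.10 (adjusted p = 0.0189, edgeR), and lost the call in 5 of 13 alternatives, with an adjusted p of up to 0.111.

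The narrow windows gave another picture of the fall after 2–4 h AED than 14–17 h AED did. This comparison and the next were added after the data were seen. They share the 4 libraries of the narrow windows with each other, and the first shares the libraries of 2–4 h AED with the comparison above. Between the mean of the narrow windows and 2–4 h AED, 56 of 89 members were lower and 20 higher (edgeR), against 42.1% lower and 50.4% higher of 11914 genes, together 85.4% of members and 92.5% of all genes. The narrow libraries lay below the early ones without overlap for 54 members, against 39.3% of all genes, and above them for 20 members, against 46.3%. Calls of at least 2-fold were made for 24 lower members, 27%, against 30.9% of all genes, and for 3 higher ones, 3.37%, against 41.5%. The family median was −0.39 on the log2 scale, against 0.35 over all genes, and lay between −0.66 and −0.39 with 1 library left out and at −0.68 with library totals, while family minus all genes stayed between −0.78 and −0.72. With library totals the split was 66 lower and 8 higher, and leaving out any 1 library other than replicate 1 at 2–4 h AED left 7 to 10 higher, while all 56 stayed lower under all 16 alternatives. RpS3A had 708 and 757 TPM at 14–14.5 h AED and 688 and 643 TPM at 17–17.5 h AED, which gave a log2 fold change of −2.54 ± 0.05 from 2–4 h AED (adjusted p = 2.87e-09, edgeR). RpS9, which lies in the decoding region of the small subunit, and RpL10, which joins the large subunit late in its assembly, had −2.02 ± 0.06 and −1.78 ± 0.06 (adjusted p = 1.11e-08 and 2.42e-08, edgeR). Among the 7 genes higher under all alternatives were RpL36 with 1.33 ± 0.06, RpL23 with 1.18 ± 0.06, RpS5a with 0.93 ± 0.08 and RpLP2 with 0.80 ± 0.06.

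Set directly against the narrow windows, the libraries of 14–17 h AED were higher for 52 and lower for 19 of 88 members (edgeR), against 31.5% higher and 29.1% lower of 11608 genes, together 80.7% of members and 60.5% of all genes. At least 2-fold higher were 11 members, 12.5%, against 7.55% of all genes, and at least 2-fold lower were 2 members, 2.27%, against 4.45%. The family median was 0.35 on the log2 scale, against 0.03 over all genes. All 4 libraries of 14–17 h AED lay above all 4 narrow ones for 42 members, 47.7%, against 16.3% of all genes, and below them for 18 members, 20.5%, against 16.8%. By CPM with TMM factors the mean at 14–17 h AED lay between those of the narrow windows for 7 of 88 members, 7.95%, and for 41.9% of all genes tested. RpL10Ab, of the large subunit, had 2499, 2633, 2587 and 1727 TPM at 14–17 h AED, against 646, 788, 686 and 657 TPM in the narrow windows (log2 fold change 1.602 ± 0.13, adjusted p = 2.30e-05, edgeR). RpS3A, RpS9, RpS14a and RpL38 followed with 1.505 ± 0.14, 1.49 ± 0.15, 1.43 ± 0.10 and 1.24 ± 0.10. In the other direction RpS15Ab had −1.82 ± 0.08 and RpL36, of the large subunit, −1.16 ± 0.06.

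RpL36 had 2251, 2422, 2311 and 2396 TPM at 14–17 h AED, against 4790, 5255, 4547 and 4115 TPM in the narrow windows, and 2231, 2150 and 2205 TPM at 2–4 h AED. For this gene 14–17 h AED thus lay near 2–4 h AED and apart from the windows at its ends. RpL22-like, RpLP0-like and RpL21 were also lower at 14–17 h AED than in the narrow windows, with log2 fold changes of −0.83 ± 0.14, −0.74 ± 0.09 and −0.73 ± 0.05 (adjusted p = 0.00115, 0.00013 and 1.29e-05, edgeR). The 10 genes named for this comparison kept their call under all 17 alternatives. Replicate 4 at 14–17 h AED lay nearer to the narrow windows for several of them, as at 985 TPM of RpS9 beside 1561, 1691 and 1639 TPM in replicates 1 to 3. Without it, 53 members were higher and 21 lower. Across the 84 genes with at least 10 CPM in every window, the fold change between 14–17 h AED and the narrow windows had a Spearman's rho of 0.27 with the number of exon blocks, 0.15 with exonic length and 0.10 with the span over the exonic length, as a description over genes that share the same libraries. The part of the instrument, of read processing and of time in this difference was not tested.

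**Figure D3:**
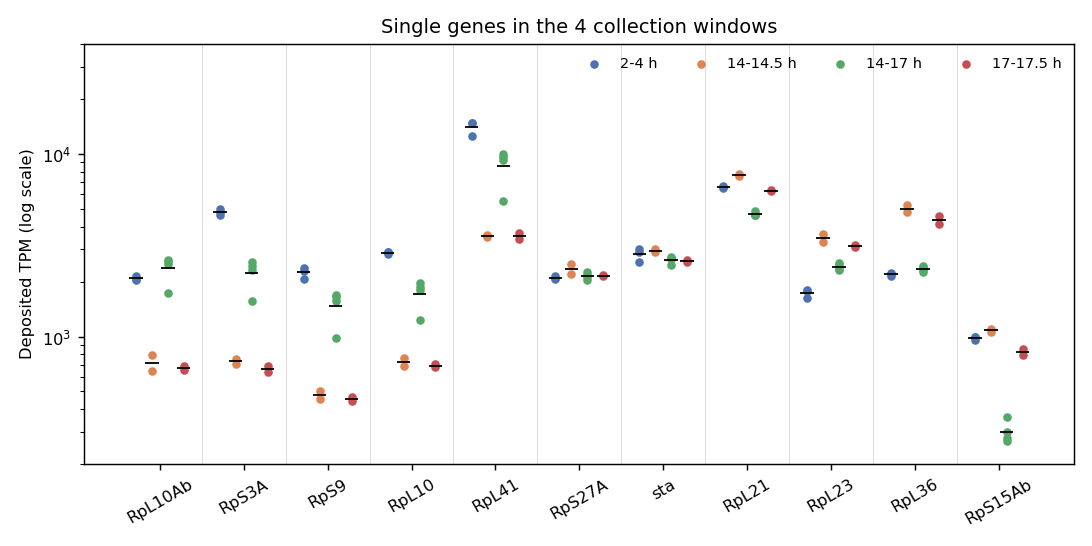
Deposited TPM (vertical axis, log scale) of 11 ribosomal protein genes in each library, with windows in time order by colour and a bar at each window mean. RpL10Ab, RpS3A, RpS9, RpL10 and RpL41 lie higher at 14–17 h AED than in both narrow windows, and RpL21, RpL23, RpL36 and RpS15Ab lie lower. RpS27A and sta differ less, though both were called lower at 14–17 h AED than in the narrow windows (log2 fold change −0.23 each, edgeR).

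Of the 14 gene pairs formed by members that encode forms of the same protein or closely related ones, 10 had a second gene above 3 counts in at least 2 libraries. The ratio of estimated counts within a pair does not depend on the scaling of the library. For these 10 pairs the log2 ratio was compared between the 8 libraries from 14 h AED on and the 3 libraries of 2–4 h AED with a two-sided exact permutation test, whose smallest possible p is 0.0121 and whose p-values are unadjusted. RpS5b held 1.38% and 1.04% of the counts of the pair with RpS5a at 14–14.5 h AED, between 1.05% and 1.45% at 14–17 h AED, and 0.865% and 0.782% at 17–17.5 h AED, against 30.1%, 29.6% and 31.0% at 2–4 h AED. The log2 ratio differed by −5.24 (late minus early, exact permutation p = 0.0121). RpS5b lost its place in every one of the 8 later libraries.

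RpL24-like, RpLP0-like and RpL34a also lost share after 2–4 h AED. RpL24-like resembles the yeast assembly factor Rlp24 and held 11.2%, 12.2%, 11.98% and 11.8% of the pair with RpL24 at 14–17 h AED, against 22.1%, 25.6% and 22.6% at 2–4 h AED. RpLP0-like resembles the yeast assembly factor Mrt4 and held 2.40%, 2.97%, 2.90% and 2.65% of the pair with RpLP0, against 9.09%, 10.4% and 8.92%. RpL34a, on chromosome arm 3R as is its partner RpL34b, held 15.9%, 18.7%, 15.4% and 18.3%, against 22.9%, 23.5% and 23.5%. The narrow windows differed from these shares. There RpL24-like held 10.9% to 11.1% at 14–14.5 h AED and 14.7% to 15.4% at 17–17.5 h AED. RpLP0-like held 4.37% to 4.44% and 6.09% to 6.70% in the same order, and RpL34a 10.5% to 10.6% and 9.58% to 9.90%. The differences of the log2 ratio over all 8 later libraries were −1.12, −1.40 and −1.002 (exact permutation p = 0.0121 each, n = 8 and 3). From the 4 libraries of 14–17 h AED alone they were −1.19, −1.90 and −0.57, where the exact permutation test could not go below p = 0.0571. RpLP0-like overlaps Jra and RpL24-like overlaps Dtd, though the estimated counts of both genes were whole in all 11 libraries. Whether reads of these neighbours were counted with them was not tested.

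RpL22-like moved the other way. It held 0.203%, 0.181%, 0.180% and 0.469% of the pair with RpL22 at 14–17 h AED and between 0.609% and 0.812% in the narrow windows, against 0.0101%, 0.00625% and 0.0159% at 2–4 h AED (difference of log2 ratio 4.85, exact permutation p = 0.0121, n = 8 and 3). Both genes took part, since RpL22 itself fell, to 866, 918, 940 and 390.5 TPM at 14–17 h AED, against 1246, 1048 and 1350 TPM at 2–4 h AED (log2 fold change −0.65 ± 0.27, adjusted p = 0.0399, edgeR). That call was lost in 4 of 16 alternatives, with an adjusted p of up to 0.109. In spite of its rise, RpL22-like never reached 1% of the pair.

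A further 2 pairs, of near-identical genes, differed between the late windows. The share of RpS14b lay apart from 2–4 h AED in the narrow windows, and that of RpS15Ab at 14–17 h AED. RpS14a and RpS14b are neighbours on the X chromosome (chrX:7933742-7934677 and chrX:7934898-7935792, both on the plus strand). RpS14b held 27.3%, 26.8% and 28.1% of the pair at 2–4 h AED, 62.6% and 61.7% at 14–14.5 h AED, 25.5%, 24.6%, 25.1% and 37.1% at 14–17 h AED, and 62.5% and 61.4% at 17–17.5 h AED. RpS15Ab held 14.5%, 15.6% and 14.6% of the pair with RpS15Aa at 2–4 h AED, 17.1% and 17.2% at 14–14.5 h AED, 5.70%, 6.4%, 5.00% and 5.89% at 14–17 h AED, and 14.2% and 15.5% at 17–17.5 h AED. In both pairs the narrow windows resembled each other and 14–17 h AED stood apart, which is why neither early-to-late difference passed (1.07 and −0.71, exact permutation p = 0.242 and 0.352, n = 8 and 3). The fall of RpS15Ab at 14–17 h AED given above stands beside a log2 fold change of 0.19 ± 0.06 for the narrow windows over 2–4 h AED. Kallisto divides reads that fit both copies of such a pair, so the split within each pair is uncertain. The estimated counts were not whole in 10 libraries for RpS14a, RpS14b and RpS15Aa and in all 11 for RpS15Ab.

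**Figure D4:**
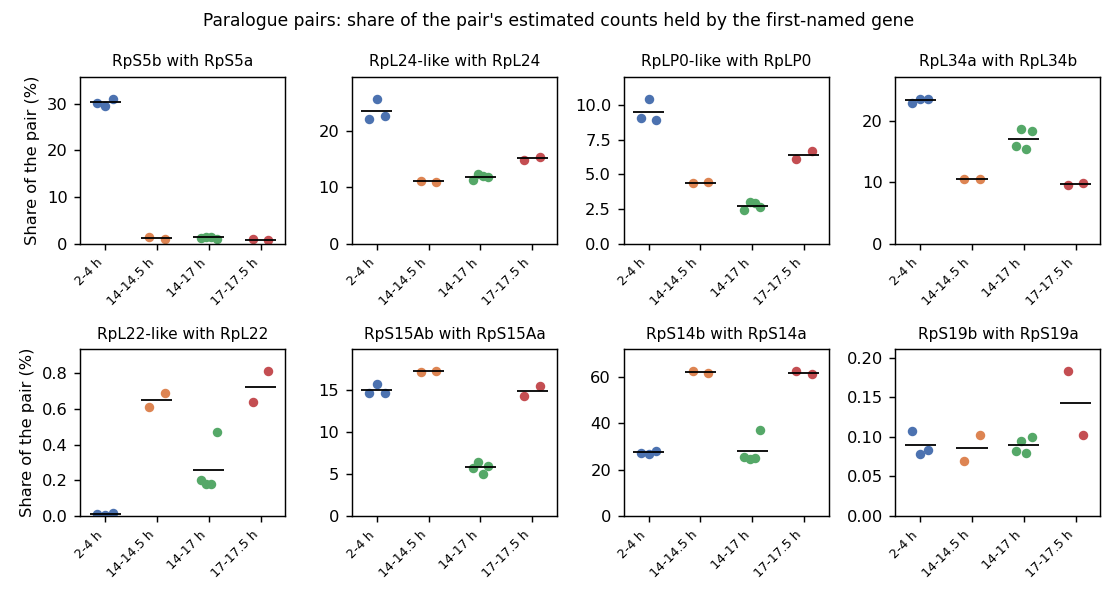
Share of a pair's estimated counts (vertical axes, percent, each panel with its own range from 0) held by the first-named gene of 8 paralogue pairs, in the 4 collection windows in time order. Points are libraries and bars window means. RpS5b falls to between 0.782% and 1.45% in the later windows, against 29.6% to 31.0% at 2–4 h AED, while RpS14b and RpS15Ab set 14–17 h AED apart from both narrow windows.

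The remaining second genes were barely present in the embryo. RpS19b, known from the germ line, had between 8 and 32 counts a library and held 0.0688% to 0.183% of the pair with RpS19a, with no difference of the log2 ratio past the test (0.12, exact permutation p = 0.776, n = 8 and 3). RpL37-2 had 3 to 14 counts (difference of log2 ratio −0.54, exact permutation p = 0.267, n = 8 and 3). RpS10a had 0 counts in all 8 later libraries and 1.84, 0.754 and 9.06 counts at 2–4 h AED, RpS28a had at most 5 counts, RpS28-like at most 2 and RpL10Aa at most 1. At these depths 3 counts, the limit that a count of 0 allows, corresponded to 0.0771 to 0.207 CPM, counting error only. RpL7-like had 78.5 counts in replicate 3 at 14–17 h AED and under 3 counts in each of the other 7 later libraries, against 157, 78.6 and 78.5 counts at 2–4 h AED. The values of 78.6 and 78.5 in replicates 2 and 3 at 2–4 h AED came from library totals of 14472809 and 31783930. These estimated counts thus did not follow depth, and a floor of 3 counts gives no bound on the fall of RpL7-like. Its log2 ratio to RpL7 differed by −5.37 between the 8 later libraries and the early ones (exact permutation p = 0.0242), a call lost without replicate 1 or 2 at 2–4 h AED (exact permutation p = 0.0889 each). From the libraries of 14–17 h AED alone the difference was −5.01 (exact permutation p = 0.114, n = 4 and 3). It overlaps CG34164 and its counts were not whole in any of the 11 libraries. The 6 genes best known from the germ line or the gonads (RpS5b, RpL22-like, RpS10a, RpS19b, RpS28a and RpL37-2) summed to between 12.4 and 22.03 CPM in the later windows, against 261 to 318 CPM at 2–4 h AED, and nearly all of the early sum was RpS5b.

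Between 14–17 h and 2–4 h AED, factors that build ribosomes changed far more than the proteins of the ribosome. A list of 32 names of nucleolar proteins, assembly factors and subunits of RNA polymerase I matched 30 genes, all of which were tested. Between 14–17 h and 2–4 h AED, 28 of 30 were lower and 1 was higher (edgeR), against 42.4% lower and 48.2% higher of all genes, with a median log2 fold change of −1.39, against −0.19 in the family and 0.19 over all genes. Fibrillarin (Fib), which methylates ribosomal RNA, had 73.6, 83.6, 94.7 and 77.1 CPM at 14–17 h AED, against 292, 229 and 298 CPM at 2–4 h AED (log2 fold change −1.70 ± 0.14, adjusted p = 1.25e-06, edgeR). Nopp140, a nucleolar chaperone, and the nucleolar helicase pit had −2.35 ± 0.13 and −2.28 ± 0.11. Subunits of RNA polymerase I moved less, with −0.59 ± 0.09 for Polr1A and −0.30 ± 0.10 for Polr1B. The single gene called higher, eIF6, had 6.92 to 15.6 CPM in the 6 libraries of 14–17 h and 17–17.5 h AED and is listed at 0 at 14–14.5 h AED and at 2–4 h AED. Between 14–17 h and 2–4 h AED, RpL24-like and RpLP0-like, at −1.30 and −1.29, lay close to the median of this list. For the narrow windows over 2–4 h AED they had −1.65 and −0.46, against a list median of −1.14.

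The same list rose between the narrow windows. At 17–17.5 h AED 28 of 30 were higher and 1 lower than at 14–14.5 h AED (edgeR), with a median of 0.79 on the log2 scale and 28 higher and 1 lower under each of 3 other scalings, against a median of 0.14 in the family. Over all genes 32% were higher and 31.5% lower, with a median of −0.04. Gar1, of the complexes that modify uridine in ribosomal RNA, rose by 1.61 ± 0.08 and Fib by 0.88 ± 0.06. At 14–17 h AED, set against the narrow windows, the list moved less than the family. There 4 were higher and 10 lower (edgeR), against 31.5% and 29.1% of all genes. The medians were −0.07 for the list, 0.35 in the family and 0.03 over all genes. RpL24-like had 0.44 and RpLP0-like −0.74.

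**Figure D5:**
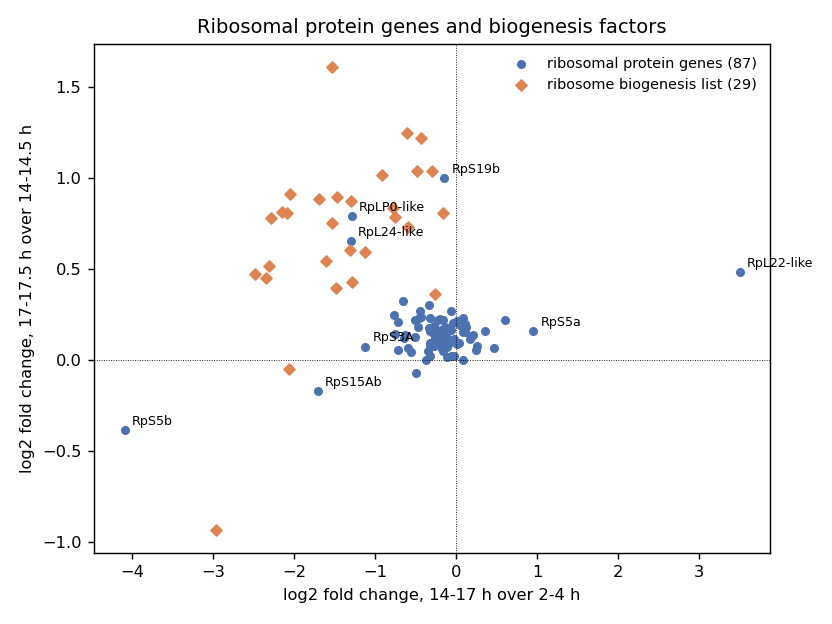
Log2 fold change of 17–17.5 h over 14–14.5 h AED (vertical axis) against that of 14–17 h over 2–4 h AED (horizontal axis) for 87 ribosomal protein genes (circles) and 29 genes of the ribosome biogenesis list (diamonds). eIF6 was left off, since it is listed at 0 in one group of both comparisons. The family gathers near 0 on both axes, and RpL24-like and RpLP0-like lie among the diamonds.

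Known regulators of ribosomal protein genes and of growth were followed as a list of 15 names, of which 14 matched. Between 14–17 h and 2–4 h AED 7 were higher and 6 lower (edgeR), with a median of 0.21 on the log2 scale, near the 48.2% higher, 42.4% lower and median of 0.19 over all genes. The promoter factors M1BP, Dref and Trf2, of which the first and the last are known to act at ribosomal protein promoters, had log2 fold changes of −2.26 ± 0.10, −2.05 ± 0.08 and −1.01 ± 0.09. Thor, which holds back translation by binding eIF4E, and foxo, which activates Thor, rose by 2.99 ± 0.20 and 3.48 ± 0.14. Xrp1, which is induced when ribosomal protein genes are mutated, rose by 5.64 ± 0.15, to 448, 492, 496 and 465 CPM at 14–17 h AED, against 10.6, 8.36 and 9.98 CPM at 2–4 h AED. Myc, a driver of ribosome biogenesis, had 170, 180.4, 187 and 163.5 CPM, against 256, 303.5 and 249 CPM, a log2 fold change of −0.57 ± 0.08. Between the narrow windows it rose by 1.78 ± 0.08 (adjusted p = 1.01e-05, edgeR), with 659 and 703 CPM at 17–17.5 h AED, against 223.5 and 216 CPM at 14–14.5 h AED. In that comparison 5 of the 14 genes were higher and 1 lower, against 32% and 31.5% of all genes.

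The family is spread over the genome, with 19 members on 2L, 21 on 2R, 14 on 3L, 23 on 3R, 15 on X and 1 on chromosome 4 (dm6). Of the 93 genes 87 have introns in the annotation and 50 overlap another gene. The RNAs that guide the modification of ribosomal RNA lie inside 29 of them, all of which were tested, with 14 such genes inside RpS5a. Between 14–17 h and 2–4 h AED these 29 hosts had a median log2 fold change of −0.27, with 1 higher and 14 lower, and the other 60 genes tested one of −0.18, with 4 higher and 18 lower. Over all genes tested 48.2% were higher and 42.4% lower, with a median of 0.19. Genes on X had −0.29 (n = 15) and those on the autosomes −0.18 (n = 74). Large subunit genes had −0.16 (n = 53) and small subunit genes −0.30 (n = 36). The differences between these classes were not tested.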

How the data were processed

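The authors deposited 1 table per library with an estimated count and a TPM value for 17753 genes, made with kallisto by pseudo-alignment on dm6 after base calling with CASAVA 1.8.2, per the submitters' processing notes. The version of kallisto is not given in the sources used here. The deposited TPM is the estimated count over the effective length of the gene span, scaled to a fixed total per library. Gene names, exons and overlaps came from Ensembl release 115 on dm6 coordinates, and 17625 of the 17753 identifiers matched.

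The estimated counts were made whole by rounding and then fitted in edgeR 4.0.16 in R 4.3.3 (filterByExpr, TMM factors, quasi-likelihood F-test, two-sided, Benjamini-Hochberg over all genes tested, adjusted p of 0.05). The standard error is the absolute log2 fold change over the square root of F. DESeq2 1.42.0, other factors, other filters, a replicate block and leaving out each library were alternatives. Pair ratios used log2 of counts plus 1 and an exact permutation test over 165 regroupings. TPM was recomputed over exonic length for levels. The fits were also run on counts simulated from their own means, with the same dispersion for every gene. Few genes were changed there, evenly up and down. For 14–17 h over 2–4 h AED, 99% of the 2-fold and 100% of the 4-fold changes were recovered, along with 12 false calls among 11483 genes. Such a check does not cover data in which most genes change.

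The genes named are all members with a paralogue, the 5 largest called rises and falls in a comparison, the 3 highest and 3 lowest levels at 14–17 h AED, and 12 members with special roles. Of the other genes, those named were chosen from the lists after their values were seen. Members, lists and rules were chosen with earlier results of these data known. Replicates were independent collections made on different days, per the methods of the study. Replicate libraries differed by 2.34 to 12.6 times the counting noise, so none were duplicates.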

Additional observations from a re-analysis of the deposited data

Results flagged for a closer look

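At 14–17 h AED, the window with 4 libraries, 40 named values of TPM or share were searched for a library far from the other 3, by the gap to its neighbour over the range of the group (above 0.829). By chance about 1 in 20 such groups would pass, and 7 did, 6 of them through replicate 4. The groups share the same 4 libraries and are not independent, so 1 shifted library can flag several genes at once. Replicate 4 was low for RpL10Ab, with 1727 TPM beside 2499 to 2633 TPM in the other 3 libraries, for RpL22, with 390.5 TPM beside 866 to 940.1 TPM, and for RpL29, with 1855 TPM beside 2530 to 2620 TPM. It was also low for RpL3, with 1485 TPM beside 1900 to 1950 TPM, and for RpL41, with 5495 TPM beside 9268 to 9955 TPM. It was high for RpS14b, with 1102 TPM beside 813 to 832 TPM. In each of these 6 genes replicate 4 lay on the side of the narrow windows. In replicate 3, RpL7-like had 3.445 TPM, while the other 3 libraries were listed at under 0.000457 TPM.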

How the results depend on the processing

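Changes of scaling, of model and of the libraries kept moved many calls. Between 14–17 h and 2–4 h AED, members higher numbered 11 with RLE factors and 13 with DESeq2, and members lower 55 with upper quartile factors and 51 with all 11 libraries in the fit. The family median was −0.0883 with RLE factors, −0.0895 with DESeq2 and −0.29 with upper quartile factors. Leaving out 1 library gave 4 to 8 higher, 22 to 54 lower and medians of −0.31 to −0.16. Between 17–17.5 h and 14–14.5 h AED, 9, 4, 2 and 46 members were higher with upper quartile factors, library totals, all 11 libraries and DESeq2, and 2, 5, 0 and 0 lower, with medians of 0.0675 for upper quartile factors and −0.0086 for library totals, where sta turned to −0.13. Leaving out 1 library gave 9 to 26 higher, 0 to 1 lower and medians of 0.0824 to 0.19. Between the narrow windows and 2–4 h AED, members higher numbered 9 with upper quartile factors, 8 with library totals, 9 without mitochondrial genes, 8 without a filter and 9 with all 11 libraries, with medians of −0.64, −0.68, −0.56, −0.53 and −0.56, and 7 to 17 when 1 library was left out, with 56 to 67 lower and medians of −0.66 to −0.39. Between 14–17 h AED and the narrow windows, library totals gave 11 lower and a median of 0.51, and leaving out 1 library 47 to 53 higher, 16 to 21 lower and medians of 0.29 to 0.41. The replicate numbers do not pair the libraries, with correlations of same-numbered deviations of −0.098 to 0.118. With a replicate block, 7 members were higher and 27 lower in the first comparison, 20 higher and 1 lower in the second, 16 higher and 56 lower in the third, and 51 higher and 23 lower in the last. The share of the family was 11.2%, 6.85%, 9.14% and 6.77% in time order without mitochondrial genes in the total, 20.6%, 14.3%, 17.7% and 13.4% by deposited TPM and 22.3%, 15.2%, 18.98% and 14.5% by exonic TPM. It ranged over 10.1% to 10.6%, 6.22% to 6.74%, 8.21% to 8.73% and 6.30% to 6.48% without 1 library. Of the 10 highest members by exonic TPM at 14–17 h AED, 6 were among the 10 highest by deposited TPM and 1 by CPM. Pair ratios kept their direction and side of the threshold with a pseudocount of 0.5, deposited TPM or 1 library left out, except RpL7-like without replicate 1 or 2 at 2–4 h AED (exact permutation p = 0.0889 each) and the sign of RpS19b, which was not called. The ranges with 1 library left out were −6.11 to −5.10 for RpL7-like, 4.70 to 5.03 for RpL22-like, −1.17 to −1.03 for RpL24-like, −1.09 to −0.93 for RpL34a, −0.73 to −0.36 for RpL37-2, −1.52 to −1.30 for RpLP0-like, −5.29 to −5.16 for RpS5b, 0.92 to 1.26 for RpS14b, −0.84 to −0.56 for RpS15Ab and −0.0038 to 0.24 for RpS19b. The cause of these shifts was not tested.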
